A study of Mus musculus with 6 samples.

Results

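Des, Ttn, Capn3, Cast and Dmpk encode parts of the sarcomere scaffold, of the calpain protease system and a muscle kinase, and their RNA was measured in the soleus of 6 mice. They were taken as the probes that the platform's annotation assigns to these genes, which gave 1 probe for each gene and 5 probes of the 223 on the array. The mice were of the 129/SV strain and carry the label WT. The sources used here give neither their age nor their sex. All 6 underwent hindlimb suspension for 7 days, followed by 1 day of reloading, so unloading and reloading are shared by every sample. The labels name no untreated, unloaded or later group, and no effect of reloading was tested. Each mouse had 1 low-density array hybridised with radioactively labelled cDNA from the belly of the muscle, and each sample is called here by its title number (175, 176, 177, 178, 202 or 203).

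Desmin (Des) is the intermediate filament that ties neighbouring myofibrils together at the Z-disc, and titin (Ttn) is the giant elastic protein that runs from the Z-disc to the M-band and holds the thick filament in place. Calpain 3 (Capn3) is a calcium-dependent protease of skeletal muscle that binds to titin, and calpastatin (Cast) is the inhibitor of the ubiquitous calpains, which cut sarcomere and cytoskeleton proteins, desmin among them. Dmpk is a serine/threonine kinase of muscle and the gene affected in myotonic dystrophy. The soleus is a postural muscle that wastes when the hindlimb carries no load, and its fibres are strained when weight bearing returns.

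In GRCm38.p6, as RefSeq annotates it, Des lies at chr1:75360292-75368579, Ttn at chr2:76703980-76982557, Capn3 at chr2:120463593-120504919, Dmpk at chr7:19083646-19093821 and Cast at chr13:74692366-74808874. Which exons the spots cover is not stated in those sources. The bases just before the start of 4 of these genes are printed because the results below turn on Des and Dmpk, whose signals moved together, and on Ttn, whose signal went the other way, with Capn3 for comparison. Capitals mark an E-box (CANNTG, the motif of myogenic basic helix-loop-helix factors) or a match to the MEF2 motif. The motifs read the same on both strands in their general form, and none of the marked sites overlap.
Des, chr1:75360042-75360291, plus strand: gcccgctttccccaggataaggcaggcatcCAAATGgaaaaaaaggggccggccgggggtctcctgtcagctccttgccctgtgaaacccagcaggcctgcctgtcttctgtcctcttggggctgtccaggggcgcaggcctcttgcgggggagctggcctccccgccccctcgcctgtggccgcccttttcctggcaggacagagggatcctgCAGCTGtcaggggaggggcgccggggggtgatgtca
Dmpk, chr7:19083608-19083645, plus strand: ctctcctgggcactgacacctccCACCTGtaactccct
Ttn, chr2:76982558-76982797, minus strand: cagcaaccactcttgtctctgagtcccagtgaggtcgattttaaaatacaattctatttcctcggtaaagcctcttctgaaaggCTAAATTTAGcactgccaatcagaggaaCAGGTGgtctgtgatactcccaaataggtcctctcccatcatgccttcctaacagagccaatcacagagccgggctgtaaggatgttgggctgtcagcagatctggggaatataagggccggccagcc
Capn3, chr2:120463343-120463592, plus strand: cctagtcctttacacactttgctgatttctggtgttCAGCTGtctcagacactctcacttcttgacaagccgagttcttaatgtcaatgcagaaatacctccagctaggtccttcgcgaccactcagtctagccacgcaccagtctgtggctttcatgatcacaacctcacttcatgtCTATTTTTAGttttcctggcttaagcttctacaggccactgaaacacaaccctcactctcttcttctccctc
The Des sequence holds 2 E-boxes, CAAATG and CAGCTG, and the second lies 36 to 31 bases before the start. The short Dmpk stretch, cut where the annotated gene begins, holds 1, CACCTG. Ttn and Capn3 each hold 1 E-box, CAGGTG and CAGCTG, and also a MEF2 match, CTAAATTTAG in Ttn and CTATTTTTAG in Capn3. Of the 32851 RefSeq promoter windows of 250 bases in the same table, 66.2% hold an E-box and 2.92% a MEF2 match, so an E-box is the common case. The first window of Cast, which is not printed, holds neither, and its second window holds 1 E-box. A CArG box, the motif of serum response factor, is held by 1.47% of windows and by 0 of the 9 windows of the 5 genes. These are matches of letters and not tested sites.

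The deposited signals are treated as parts per mille of each array's total over 221 probes, a scale found from the values. The 10th percentile of an array, which lay between 0.5 and 0.7 per mille, is called its floor, and a probe at 2 or more times the floor is called clear of it. In all 6 mice, 57 of the 223 probes (25.6%) were clear by this limit. Markers of the labelled tissue were present: all 6 measured genes of a list of 22 thick and thin filament and fibre genes, among them Myh7 and Mb, were clear in every mouse. Markers of other cells were few on the array. Of the endothelial list 2 of 6 measured genes, Pecam1 and Cd34, were clear in all mice, and of the fat cell list 2 of 3. The satellite cell list had 1 of 4, which was the same Cd34. The fibroblast and matrix list had 1 of 4 probes and the immune list 0 of 2 genes. Of the nerve and blood lists none was measured. Tissue RNA does not separate fewer cells of a type from less RNA per cell.

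Des, Ttn and Dmpk cleared the floor in every mouse, and Capn3 and Cast lay close to it. The signal of Des was 24.0, 28.9, 49.7, 45.3, 29.0 and 40.0 per mille in samples 175, 176, 177, 178, 202 and 203. Sample 175 was lowest and sample 177 highest, a 2.07-fold range, and the mean was 36.2 ± 10.3 per mille (SD, n = 6). Against the floor of its own array Des stood at 40.0 to 71 times, and here too sample 175 was lowest and 177 highest.

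Ttn gave 26.0, 22.6, 17.8, 20.1, 18.1 and 18.7 per mille in the same order of samples. The highest mouse for Ttn was the lowest for Des, and the lowest for Ttn was the highest for Des. The range of Ttn was 1.46-fold, with a mean of 20.6 ± 3.20 per mille (SD, n = 6), and it stood at 25.4 to 43.3 times the floor. No other gene of the list of 34 scaffold and cytoskeleton genes was on the array, so the dystrophin complex, alpha-actinins, nebulin and the titin-binding ankyrin repeat proteins were not analysed here.

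Dmpk gave 1.8, 2.4, 4.2, 3.2, 2.2 and 2.4 per mille. It was lowest in sample 175 and highest in sample 177, as Des was, with a 2.33-fold range and a mean of 2.70 ± 0.865 per mille (SD, n = 6). It stood at 3.0 to 6.0 times the floor and was the dimmest of the 3 clear genes relative to it. The step between deposited values is 0.1 per mille, so that rounding can shift the lowest Dmpk value by up to 2.78%. Of the list of 13 genes tied to Dmpk and myotonic dystrophy, the array held Srf besides, a load-responsive transcription factor, which was clear in all mice, at 1.78 ± 0.293 per mille (SD, n = 6).

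Cast gave 1.1, 1.1, 1.2, 1.5, 0.7 and 1.1 per mille, with a mean of 1.12 ± 0.256 per mille (SD, n = 6). It passed 2 times the floor in sample 178 alone, at 2.14 times, and lay between 1.40 and 1.83 times in the other 5 mice. Capn3 gave 0.9, 1.0, 0.9, 0.9, 0.6 and 0.7 per mille, with a mean of 0.833 ± 0.151 per mille (SD, n = 6), and lay between 1.17 and 1.67 times the floor, clear of it in no mouse. Neither gene can be read from these spots as expressed or as not expressed. At such levels the rounding alone comes to 7.14% of the lowest Cast value and 8.33% of the lowest Capn3 value. With the limit at 1.5 times the floor, Cast would count as clear in 5 mice and Capn3 in 2, while with 3 times the floor neither would in any mouse. Des, Ttn and Dmpk were clear in all 6 mice at 1.5, 2 and 3 times the floor, as were 84, 57 and 39 of the 223 probes. The other 19 genes of the list of 21 calpain and proteolysis genes, including the ubiquitous calpains and the muscle ubiquitin ligases, were not on the array.

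**Figure D1:**
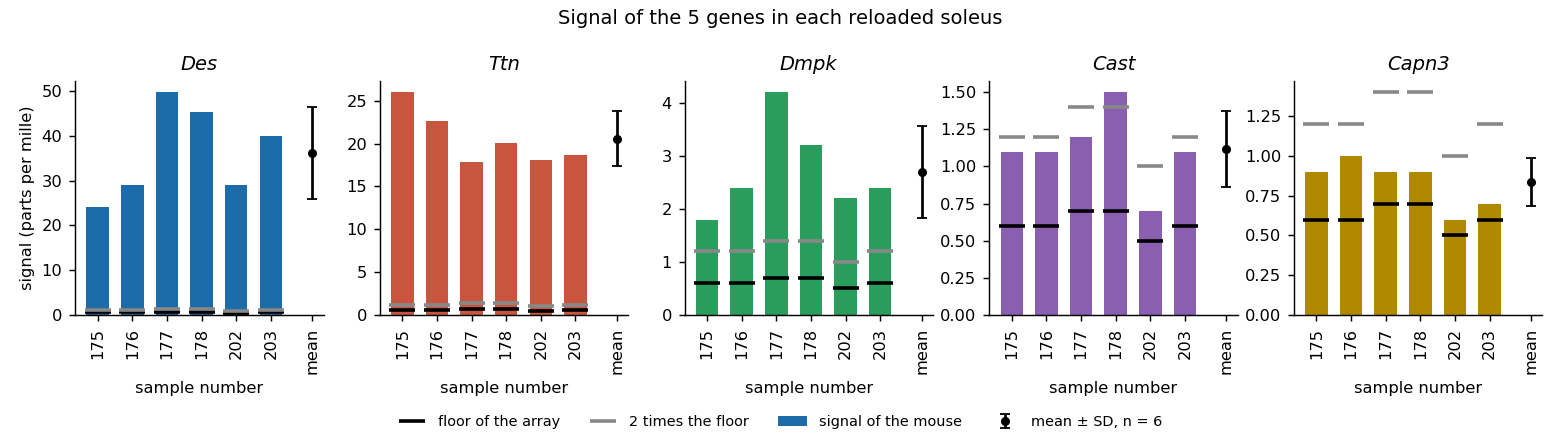
Bars give the signal of each gene in each mouse in parts per mille, with the floor of the array (black dash), 2 times the floor (grey dash) and the mean ± SD over 6 mice (point and bar). Des, Ttn and Dmpk stand above both dashes in every mouse, Cast passes the grey dash in sample 178 and Capn3 in none.

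The 5 genes differed in how much they varied between mice. The SD of log2 signal was 0.42 for Des and 0.43 for Dmpk, against a median of 0.27 over all 223 probes, and 89.7% and 90.6% of probes had a smaller SD. Among the 20 probes nearest in mean signal, 15 varied less than Des and 15 less than Dmpk. Ttn, beside Des in brightness, had an SD of 0.21, smaller than the median of 0.33 of its 20 nearest probes, 7 of which varied less, and it fell to 0.14 without sample 175. Cast had an SD of 0.36 and Capn3 of 0.28, and of their 20 nearest probes 13 varied less than Cast and 15 less than Capn3. With 1 array per mouse, spread between mice cannot be told apart from spread between labellings and arrays.

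The spread of Des and Dmpk exceeded the median of all probes under each scaling tried, whereas the place of Ttn changed with it. Des had an SD between 0.32 and 0.83 and Dmpk between 0.33 and 0.86 over the other scalings. The SD of Ttn was below the median of all probes as deposited, but above it with arrays centred on their median (0.27 against 0.20) and with quantile normalization (0.25 against 0.17). It was also above it with arrays divided by their floor (0.28 against 0.20) or by the total of all probes (0.23 against 0.20). With a pseudocount of 0.6 per mille it was 0.21 against 0.15. Under the remaining scalings it was below the median. Cast fell to 0.19 without sample 202, in which it was lowest, and Capn3 to 0.10 with a term for the 2 runs of sample numbers.

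**Figure D2:**
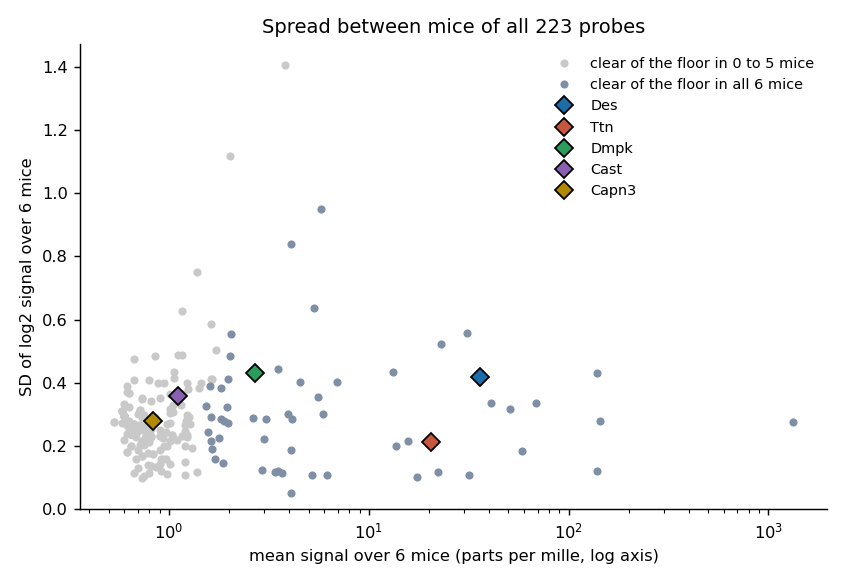
Each point is a probe, with its mean signal over 6 mice on a log axis and the SD of its log2 signal over the mice; diamonds mark the 5 genes. Des (SD 0.42) and Dmpk (0.43) lie above most probes of like brightness, and Ttn (0.21) lies below Des.

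Des and Dmpk rose and fell with each other over the 6 mice. Both were lowest in sample 175 and highest in 177, with sample 178 second. Their log2 signals had Pearson r = 0.91 (exact permutation p = 0.00556, two-sided, n = 6) and Spearman rho = 0.90 (exact permutation p = 0.0278). After Benjamini-Hochberg adjustment over the 10 pairs of the 5 genes these were 0.0556 and 0.278, so the relation did not pass 0.05. Without samples 175 and 177, which lay farthest from the median of Des, r was 0.80, and leaving out each mouse gave 0.86 to 0.97. The relation was positive under each of the 8 alternative scalings, from 0.76 with quantile normalization to 0.98 with arrays divided by Rn28s1.

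The ratio of Des to Dmpk is free of any factor that multiplies a whole array. Relative to its geometric mean it was 0.992, 0.896, 0.880, 1.05, 0.980 and 1.24 in samples 175 to 178, 202 and 203, so sample 203 stood highest and the other 5 mice lay closer together. Its SD was 0.18 on the log2 scale, and 5.58% of the 1596 pairs of probes clear in all mice had a smaller one, against a median of 0.40. Among the 56 other clear probes, Dmpk had the second highest r with Des, and Des the third highest with Dmpk. This ratio was chosen after the values were seen.

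Des and Ttn, the paired scaffold genes, went opposite ways. Their ratio, relative to its geometric mean, was 0.538 in sample 175 and 1.63 in sample 177, a 3.02-fold range, and its SD of 0.59 was larger than that of 80.5% of the 1596 pairs. The log2 signals had r = -0.71 (exact permutation p = 0.117, adjusted p = 0.44, n = 6) and rho = -0.77 (exact permutation p = 0.103, adjusted p = 0.343). Without samples 175 and 177 r was -0.18, so the relation leans on those mice. Leaving out single mice gave r from -0.94 (without sample 202) to -0.43 (without sample 175), so sample 202 also changed its size. The sign held under 7 of the 8 alternative scalings, with r from -0.97 to -0.66, and turned to 0.80 with arrays divided by Rn28s1, which puts 1 shared divisor under both genes. All signals share 1 total per array, of which Des took between 2.40 and 4.97%. With Des left out of that total, r of Des and Ttn was -0.66 (exact permutation p = 0.171, adjusted p = 0.383, n = 6).

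Ttn and Dmpk had r = -0.63 (exact permutation p = 0.189, adjusted p = 0.44, n = 6) and rho = -0.55 (exact permutation p = 0.272, adjusted p = 0.544). Without samples 175 and 176, farthest from the median of Ttn, r was -0.045. Dividing each array by the total of all 223 probes, which adds the unnamed bright probe 1M and Rn28s1, gave r = -0.97 for Des and Ttn and -0.94 for Ttn and Dmpk, with an adjusted p of 0.0278 in both cases (exact permutation, n = 6), and these were the pairs that passed there.

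**Figure D3:**
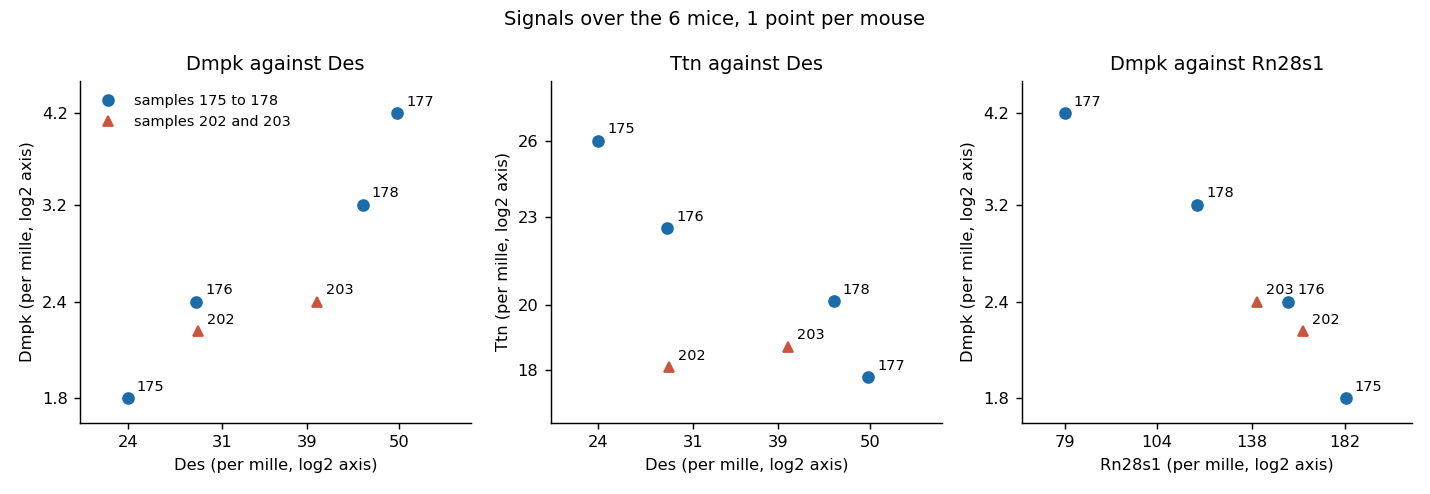
Signals of 2 genes are set against each other on log2 axes in parts per mille, 1 point per mouse, with circles for samples 175 to 178 and triangles for 202 and 203. Dmpk rises with Des from sample 175 to 177, Ttn is highest in sample 175 where Des is lowest, and Dmpk falls as Rn28s1 rises.

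A probe outside the scale moved against Des and Dmpk. Rn28s1, the probe for 28S ribosomal RNA, is left out of the 221 probes of the total, and gave 182.4, 153.6, 79.0, 117.2, 160.8 and 140.1 per mille in samples 175, 176, 177, 178, 202 and 203. It was highest in the mouse with the least Des and Dmpk and lowest in the mouse with the most. Dmpk and Rn28s1 had r = -0.98 (exact permutation p = 0.00278, adjusted p = 0.0278, n = 6) and rho = -0.99 (exact permutation p = 0.00556, adjusted p = 0.0833). Des and Rn28s1 had r = -0.90 (exact permutation p = 0.00278, adjusted p = 0.0278, n = 6) and rho = -0.94 (exact permutation p = 0.0167, adjusted p = 0.0833). The adjustment covers 20 relations of the 5 genes with Rn28s1, probe 1M, the floor and the array median, all chosen after the values were seen. Without the 2 mice farthest from the median r was -0.93 for Dmpk and -0.94 for Des, and with a term for the 2 runs of sample numbers it was -0.98 and -0.92. Ttn and Rn28s1 had r = 0.62 (exact permutation p = 0.197, adjusted p = 0.286, n = 6) and rho = 0.60 (exact permutation p = 0.242, adjusted p = 0.403), and r was 0.19 without samples 175 and 176. The part of ribosomal RNA signal, or of the RNA amount and quality it may carry, in the shared movement of Des and Dmpk was not tested.

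Summed levels of the markers of other cells stand beside this result. The summed level of the 6 measured endothelial markers ranged from 7.2 to 10.2 per mille and was 8.0 in sample 175 and 8.1 in sample 177. That of the 3 measured fat cell markers ranged from 7.8 to 10.8 per mille, with 9.2 in sample 175 and 10.1 in sample 177, and that of the 4 satellite cell markers from 3.3 to 5.0, with 4.8 and 4.4. Cd34 is part of both the endothelial and the satellite cell sum. The 4 probes of 3 fibroblast and matrix cell genes summed to 3.3 to 5.1 per mille, with 5.1 in both of these mice. Single markers differed: the r with Des over the 6 mice, as a description, was 0.88 for Kdr, 0.81 for Flt1, 0.80 for Tek, 0.56 for Pecam1, -0.22 for Cdh5 and -0.58 for Cd34 of the endothelial list. It was 0.96 for the fat cell marker Pparg, against 0.28 for Fabp4 and 0.21 for Lpl. For the satellite cell list it was 0.94 for Myod1, 0.16 for Vcam1, -0.059 for Myf5 and -0.58 for Cd34. For the fibroblast list it was 0.73 for Pdgfra, 0.57 and 0.17 for the probes of Fn1 and -0.17 for Tnc. Of these, Kdr, Flt1, Tek, Pparg, Vcam1, Myf5 and the Fn1 probe with 0.57 did not reach 2 times the floor in any mouse. Myod1 reached it in 1 mouse, Pdgfra in 2 and Tnc in 3. Their part in the result was not tested.

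**Figure D4:**
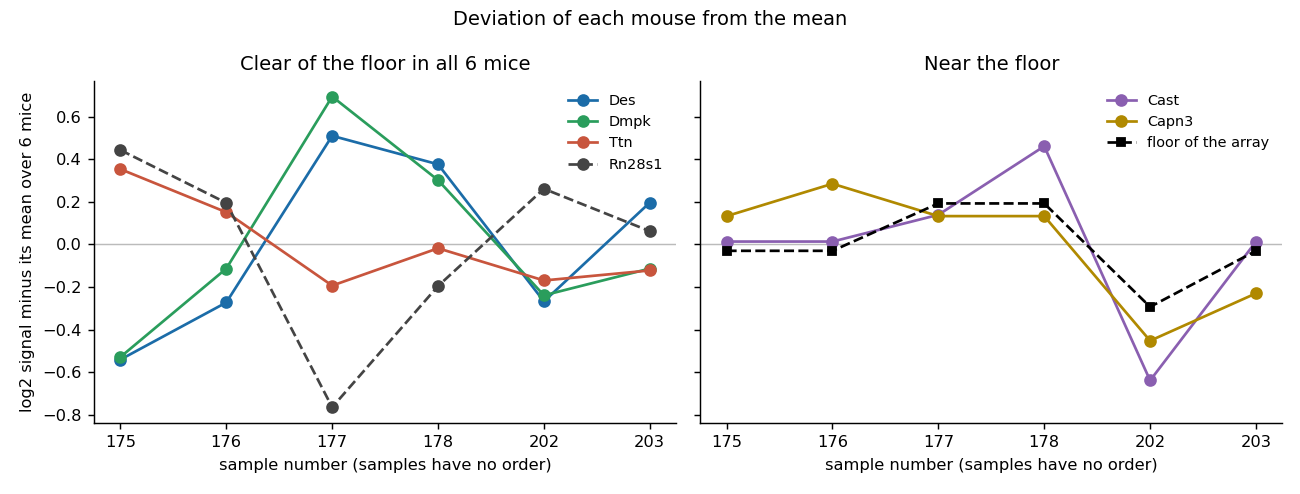
Each point is the log2 signal of a gene in 1 mouse minus its mean over 6 mice; lines only join the points of a gene, since samples have no order. In the left panel Des and Dmpk move together, with Ttn and Rn28s1 highest in sample 175, where Des and Dmpk are lowest. In the right panel Cast and Capn3 are lowest in sample 202, where the floor is lowest too. In that sample 66.8% of all probes are at or tied with their lowest value.

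Cast moved with array-wide values more closely than the other 4 genes did. It was lowest in sample 202, where the floor was 0.5 per mille, and highest in sample 178, where it was 0.7. Sample 202 held the lowest or tied lowest value of 66.8% of all probes. Cast and the floor had r = 0.93 (exact permutation p = 0.0167, adjusted p = 0.0833 over the 20 relations, n = 6) and rho = 0.98 (exact permutation p = 0.0167, adjusted p = 0.0833). Cast and the unnamed bright probe 1M had r = 0.94 (exact permutation p = 0.00833, adjusted p = 0.0556, n = 6) and rho = 0.94 (exact permutation p = 0.0167, adjusted p = 0.0833), and r was 0.96 without samples 178 and 202. The run as a covariate left it at 0.89. Cast and the floor both move in steps of 0.1 per mille, and without samples 178 and 202 the 4 remaining arrays hold 2 values of either. Des and Cast had r = 0.54 (exact permutation p = 0.283, adjusted p = 0.44, n = 6) and rho = 0.64 (exact permutation p = 0.183, adjusted p = 0.458). Cast and Dmpk had r = 0.49 (exact permutation p = 0.308, adjusted p = 0.44, n = 6) and rho = 0.77 (exact permutation p = 0.1, adjusted p = 0.343). With arrays divided by their floor, r was 0.0020 for Des and Cast and -0.14 for Cast and Dmpk, and with 50% of the floor subtracted it was 0.50 and 0.41. Ttn and Cast had r = 0.20 (exact permutation p = 0.683, adjusted p = 0.759, n = 6) and rho = -0.030 (exact permutation p = 1, adjusted p = 1). Without the 2 mice farthest from the median of the first gene named, r was 0.77 for Des and Cast, 0.92 for Cast and Dmpk and 0.63 for Ttn and Cast. With the floor, r was 0.71 for Des, 0.73 for Dmpk and -0.013 for Ttn. With probe 1M it was 0.63, 0.68 and 0.083. With the array median it was 0.77, 0.62 and -0.16, against 0.87 for Cast. The adjusted p of these was 0.2 or more (exact permutation over the 20 relations, n = 6). With a term for the run, Des had 0.92 with the floor and with probe 1M, Dmpk 0.75 and 0.73, and Ttn -0.62 and -0.61. The part of these array-wide values in the relations between the genes was not tested.

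The title numbers fall into 2 runs, 175 to 178 and 202 to 203, whose meaning the labels do not give. Capn3 was the member in which the runs stood apart: samples 202 and 203 gave 0.6 and 0.7 per mille against 0.9 to 1.0 in the other 4, without overlap. Of all probes 13.9% had both samples below all 4 others, so this alone does not set Capn3 apart. In limma over 223 probes the difference for Capn3 was -0.51 ± 0.18 on the log2 scale (SE, adjusted p = 0.106, Benjamini-Hochberg), while the median difference over the 223 probes was -0.18. Of all probes 14 (6.28%) passed an adjusted p of 0.05 in this comparison and 0 of the 5 genes did, although Capn3 and Cast had unadjusted p-values of 0.0128 and 0.0451. The limma count over all probes was 0 without sample 202 (with 40 at an unadjusted p under 0.05), 2 without 203, 5 without 176, 8 without 175, 20 without 177 and 11 without 178. Without 202 or 203 the lone sample of that run is assumed to vary like the other 4. The differences for Des, Ttn, Cast and Dmpk were -0.054, -0.22, -0.47 and -0.26 (limma adjusted p from 0.21 to 0.897). Samples 202 and 203 lay inside the range of the other 4 in Des, Ttn and Dmpk, so correlations over all 6 mice are given for these, and with a term for the run r was 0.94 for Des and Dmpk, -0.87 for Des and Ttn and -0.98 for Ttn and Dmpk. Within runs only 48 pairings exist, and the smallest exact permutation p they allow, 0.0208, was that of Des and Dmpk (adjusted p = 0.208, n = 6). Correlations within a run of 4 or 2 samples were not tested. For Capn3 no single correlation is printed, because its 6 values fall into the 2 runs and neither holds 6 samples. Its 4 pairs still count among the 10 pairs and in their adjustment.

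The median r over the 6 pairs without Capn3 was 0.35, and it was 0.37 over the 24753 pairs of all probes and -0.0080 over the 1596 pairs of probes clear in all mice. Between these 4 genes r ran from -0.71 for Des and Ttn to 0.91 for Des and Dmpk. Among the 52 other named probes clear in all mice, those most like Des were Fgfr2, a fibroblast growth factor receptor (r = 0.96 over 6 mice), Vegfb, a vascular growth factor relative (0.90), and Mef2c, a transcription factor of muscle genes (0.88). Those most like Dmpk were Vegfb (0.97), Mef2c (0.94) and the transcription cofactor Cited2 (0.86). Mef2c gave 4.8, 5.4, 8.4, 6.1, 4.8 and 5.9 per mille in samples 175 to 178, 202 and 203, and was highest in sample 177, as were Des and Dmpk. These r are descriptions over the same 6 arrays, with the most alike of 52 picked out.

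Probes most like Ttn were Slc2a2, a glucose transporter (r = 0.90 over 6 mice), the glycolytic enzyme Pgk1 (0.82) and Cd34, a surface protein of endothelial and progenitor cells (0.81). Slc2a2 lay close to the limit, at 1.3 to 1.9 per mille in steps of 0.1. In sample 177 it gave 1.4 per mille, which was 2 times the floor there. Pgk1 gave 5.0, 4.3, 4.1, 3.9, 3.8 and 3.4 per mille in samples 175 to 178, 202 and 203, and shared with Ttn its highest mouse but not its lowest. Probes most like Cast were Timp3, an inhibitor of matrix proteases (0.95), the laminin chain Lamc1 (0.91) and the receptor Igf2r (0.90), each lowest in sample 202. For Capn3 the rule named Ywhaz, Ucp3 and Car3 as most like it, and no value is given here either. The 5 genes themselves were left out of these orders of likeness.

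Myosins and other muscle fibre genes are given beside Des and Ttn. Myh7, the slow myosin heavy chain, gave 63.8, 83.7, 49.0, 78.9, 84.4 and 54.6 per mille in samples 175 to 178, 202 and 203, and was lowest in sample 177, where Des was highest. Myh2, a fast oxidative myosin, gave 11.4, 21.6, 23.3, 27.9, 32.8 and 20.7 per mille and was lowest in sample 175, where Ttn was highest. Over the 6 measured genes of the thick and thin filament and fibre list, which are 4 myosins, Mb and Car3, the r with Des ranged from -0.63 (Myh4) to 0.47 (Myh2), as a description over 6 mice. Of 7 measured genes of the list of 11 myogenic regulators, Myf6, Mef2c and Srf were clear in all mice, Myod1 in 1 and Myog, Myf5 and Mef2a in none.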

How the data were processed

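RNA of 6 soleus muscles was measured on low-density arrays, 1 per mouse. Per the labels' protocols, 4 microgram of total RNA was reverse transcribed with gene-specific primers and labelled with 32P. The sources used here do not give the scanner, the background treatment or the normalization. The authors deposited 1 table of linear signal with 223 probes and 6 columns. Without probes 1M and 1O (annotated as Rn28s1) each column summed to between 998.6 and 1000.4 parts per mille, and no label states this scale. The precision is limited by the number of arrays, 6. The series' design text describes the samples as biological replicates.

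Genes were named by the annotation of the platform, which gave 1 gene for 205 probes, several for 0 and none for 18, and 204 were matched by gene number to RefSeq (GRCm38.p6). Promoter sequences are RefSeq's of that build, and all 5 genes matched. Signals were used as log2 with no pseudocount. Correlations were tested by exact permutation over 720 pairings, two-sided, and the sample runs with limma 3.58.1 (lmFit, eBayes) over all probes, with Benjamini-Hochberg adjustment. Both tests were checked on simulated data. Python 3.11.15 and R 4.3.3 were used.

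The 5 genes, the 13 gene lists and the alternatives were chosen with earlier results of these data known. Named genes are the 5, the 3 clear probes most like each, and the measured genes of the lists on scaffold, calpains and Dmpk. Other genes, such as the myosins, Rn28s1 and list markers, were chosen after their values were seen. Alternatives were other scalings, a pseudocount of 0.6 per mille, floor subtraction, other floors and leaving out mice. Dividing by Rn28s1 and leaving Des out of the total were added after the data were seen.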

Additional observations from a re-analysis of the deposited data

How the results depend on the processing

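No paired analysis was possible because the labels hold 1 group. The count of genes clear of the floor in all mice was 3 at 1.5 and 3 times the floor, with the floor at the 5th or 20th percentile, and without single mice or samples 202 and 203. Other scalings were not run for it. Of all 223 probes 57 were clear in all mice as reported, 84 at 1.5 times and 39 at 3 times the floor. With the floor at the 5th and 20th percentile 60 and 52 were. The median SD of the 5 genes, 0.36 as reported, was 0.24 with the total of all probes, 0.22 with the pseudocount, 0.67 with arrays divided by Rn28s1, 0.23 without samples 202 and 203 and 0.16 as a median absolute deviation. The median over all probes was 0.27 as reported, and 0.20, 0.15, 0.60, 0.18 and 0.19 in the same order. It was below that of the 5 genes except as a median absolute deviation, where it was above. Leaving out single mice gave the 5 genes a median of 0.22 (without sample 202) to 0.40, and all probes 0.20 (without sample 202) to 0.28. Of the 10 pairs, 0 passed an adjusted p of 0.05 as reported (exact permutation, n = 6), with 1 at an unadjusted p under 0.05. This count was 2 with the total of all probes, 1 with Des left out of the total (Des and Dmpk, adjusted p = 0.0278, exact permutation) and 10 with arrays divided by Rn28s1, a divisor that all pairs, those of Capn3 included, then share and that ranged 2.31-fold. It was 0 under every other alternative. The total of all probes holds probe 1M as a large part, at 968.1 to 1644.9 per mille.

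Some signs turned. With arrays divided by Rn28s1, r was 0.80 for Des and Ttn and 0.86 for Ttn and Dmpk. For Ttn and Cast r was -0.050 with arrays centred on their median, -0.21 divided by their floor, -0.30 with the total of all probes, -0.25 with a term for the run, -0.030 as Spearman's rho, -0.50 without samples 202 and 203 (4 samples, no test) and -0.30 to 0.33 without single mice. For Cast and Dmpk it was -0.14 divided by the floor. In the comparison of the number runs, Des changed sign with arrays centred on their median (0.031), divided by their floor (0.19) and with the total of all probes (0.15), and ranged from -0.29 to 0.18 without single mice, and Ttn changed sign divided by the floor (0.024). None of the 5 genes passed 0.05 in that comparison under any alternative that kept both samples 202 and 203. The smallest limma adjusted p was 0.066, for Capn3 with arrays centred on their median. Over all probes, 10 to 22 of 223 passed under the planned other scalings, and 2 of 222 with arrays divided by Rn28s1. The signal of Capn3 and Cast over the floor, not the number of mice alone, limits what can be read of them. The cause of these changes was not tested.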

Other observations

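After Rn28s1, the clear probes with the lowest r to Dmpk were Cd36 and Hadh, which with Rn28s1 were also the 3 lowest to Des; they were chosen after their values were seen. Cd36, a fatty acid transporter, gave 5.8, 6.1, 2.9, 3.7, 4.5 and 4.1 per mille in samples 175 to 178, 202 and 203, with r = -0.91 to Des and -0.86 to Dmpk over the 6 mice, and was lowest in sample 177. Hadh, an enzyme of mitochondrial beta-oxidation, gave 3.9, 3.5, 3.3, 3.2, 3.9 and 3.4 per mille, with r = -0.89 to Des and -0.81 to Dmpk. Against Ttn went Ldhb, the lactate dehydrogenase subunit of oxidative muscle (r = -0.91), the muscle cytochrome oxidase subunit Cox6a2 (-0.83) and Myh2 (-0.80). Cox6a2 gave 34.7, 45.8, 54.8, 61.2, 62.3 and 47.4 per mille, and was lowest in sample 175, where Ttn was highest. These are descriptions over 6 arrays that share a total, with the most opposite of 52 probes picked out.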
